A study of Mus musculus with 12 samples.

Results

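RNA levels of 10 genes of the bone and cartilage lineages, Bglap, Bglap2, Spp1, Ibsp, Runx2, Sp7, Alpl, Sox9, Acan and Chad, were followed in mouse embryonic fibroblasts at the start of reprogramming. The 10 were chosen by symbol out of 23284 genes listed, with earlier results of these libraries known, and which values led to the choice is not recorded. Every level, change and adjusted p of theirs is therefore a description of these libraries and independent support for nothing. The samples were total RNA of secondary 1B fibroblasts (2o 1B MEFs), a line in which doxycycline (dox) switches on introduced reprogramming factors. The 6 groups were siMyc with dox, siGcn5 with dox, siControl with dox, siMyc without dox, siGcn5 without dox and siControl without dox, with 2 libraries each. All groups were siRNA-transfected cells of the 1B line: siMyc targets c-Myc (gene Myc), siGcn5 targets Gcn5 (gene Kat2a), the acetyltransferase of the SAGA coactivator complex, and siControl is the control siRNA. Dox was given for 2 days, and the titles call these libraries D2 and those without dox MEF. The labels tie neither siRNA pools nor individual siRNAs to these libraries, and they do not say which medium the siRNA-treated cells without dox were kept in, so dox and a change of medium cannot be told apart. No label ties the 2 libraries of a group to separate cultures, so a p-value speaks only of the scatter among libraries, part or all of which may be technical. The series title asks how Myc and SAGA act early in reprogramming, with splicing as its subject; skeletal genes are not named in it.

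Osteoblasts lay down a collagen matrix and mineralize it under the transcription factors Runx2 and Sp7 (osterix), and chondrocytes build cartilage under Sox9. Osteocalcin, made by mature osteoblasts, is encoded in mice by Bglap and its close copy Bglap2. Osteopontin (Spp1) and bone sialoprotein (Ibsp) are secreted acidic glycoproteins that bind integrins. Alpl encodes tissue-nonspecific alkaline phosphatase, which frees phosphate for mineral and is also active in pluripotent stem cells. Aggrecan (Acan) is the large proteoglycan of cartilage, and chondroadherin (Chad) is a leucine-rich protein of its matrix. Spp1 is made by many cell types outside bone, and fibroblasts of the embryo body share mesenchymal origin with skeletal cells.

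The promoters that follow are shown because they are the windows among the members that hold the Runx core TGTGGT, the sequence bound by the Runx factors of this lineage. RefSeq windows of 250 bases before to 50 after the start site (build GRCm38.p6, while the deposited values were made on mm9) matched 7 of the 10 genes by symbol; Bglap2, Sp7 and Sox9 had none in the table used. Capitals mark the Runx core TGTGGT and the Sox core ACAAT, searched on both strands, so that ACCACA and ATTGT are the same motifs on the opposite strand. The Bglap window is chr3:88384417-88384716 on the minus strand, the Spp1 window, of the upstream of its 2 start sites, is chr5:104434861-104435160 on the plus strand, and the Runx2 window is chr17:44814578-44814877 on the minus strand.
Bglap: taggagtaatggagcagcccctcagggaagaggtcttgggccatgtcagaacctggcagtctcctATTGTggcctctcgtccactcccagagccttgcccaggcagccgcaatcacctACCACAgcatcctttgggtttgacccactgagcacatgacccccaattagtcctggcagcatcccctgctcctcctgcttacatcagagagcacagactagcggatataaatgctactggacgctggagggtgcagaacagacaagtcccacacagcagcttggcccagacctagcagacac
Spp1: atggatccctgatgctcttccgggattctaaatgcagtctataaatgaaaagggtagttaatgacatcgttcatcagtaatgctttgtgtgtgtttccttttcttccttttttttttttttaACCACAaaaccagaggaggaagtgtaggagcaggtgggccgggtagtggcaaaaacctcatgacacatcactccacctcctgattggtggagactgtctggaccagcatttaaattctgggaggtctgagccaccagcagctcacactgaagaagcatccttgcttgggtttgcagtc
Runx2: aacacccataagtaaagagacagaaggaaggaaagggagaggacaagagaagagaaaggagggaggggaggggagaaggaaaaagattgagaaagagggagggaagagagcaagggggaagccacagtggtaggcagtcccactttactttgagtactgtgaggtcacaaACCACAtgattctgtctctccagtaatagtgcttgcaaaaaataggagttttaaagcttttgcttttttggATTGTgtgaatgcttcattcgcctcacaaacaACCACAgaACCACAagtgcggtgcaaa
Bglap held 1 Runx core with its first base at −132 from the start site, and Spp1 held 1 at −128. Runx2 held 3. The core was also in 16.8% of all 32851 promoter windows of this length. The Sox core was present in 31.0% of all windows and, among the members, in those of Bglap, Ibsp, Runx2 and the second start of Alpl. The E-box CACGTG, which Myc can bind, was in 7.15% of all windows and in none of the 7 members' windows. The 3 motifs do not overlap in the windows shown, and a match is a description of letters only.

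The osteocalcin transcripts themselves are nearly the same, which limits what their values can say. The GENCODE M21 transcripts of Bglap (440 bases) and Bglap2 (471 bases) agreed at 434 of 440 aligned bases (98.6%), and 74.7% of the 50-base windows of Bglap were also found in Bglap2. Reads from such stretches could have been split, dropped or assigned to either copy. The share of each copy is therefore uncertain, and dropped reads would also lower the sum of both.

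Gene reads per library, recovered from the deposited RPKM values (reads per kilobase of transcript, scaled to library size), ran from 65.5 M to 188.1 M. The targeted gene followed its label in every library. Myc had 16.9 and 26.2 RPKM in siMyc with dox against 174 and 155 RPKM in siControl with dox, and 4.57 and 4.80 RPKM in siMyc without dox against 21.7 and 17.6 RPKM in siControl without dox. Kat2a had 6.27 and 9.11 RPKM in siGcn5 with dox against 55.7 and 53.1 RPKM in siControl with dox, and 1.33 and 1.97 RPKM in siGcn5 without dox against 23.0 and 20.7 RPKM in siControl without dox. Myc RNA from introduced copies is not separated in these values. Against siControl, Kat2a was also lower in siMyc with dox (18.1 and 19.4 RPKM), and Myc in siGcn5 both with dox (103 and 129 RPKM, log2 −0.51, limma adjusted p = 0.0464) and without dox (9.31 and 7.10 RPKM). Pou5f1, Sox2 and Klf4, taken as the check of dox, rose with dox in every arm. With dox, Pou5f1 was lower in siMyc and siGcn5 than in siControl (log2 −1.28 and −0.69), as was Sox2 (log2 −0.89 and −0.75). Klf4 was higher in siMyc (log2 0.46) and lower in siGcn5 (log2 −0.48). The arms with dox were thus not alike in these RNAs, and the part of this in the members' values was not tested. Each of 10 fibroblast markers reached 1 RPKM in some library. The osteocyte genes Dmp1, Mepe, Phex and Sost stayed under 1 RPKM in all 12 libraries. Of 7 macrophage and blood markers, Ptprc, Csf1r and Emr1 stayed under 1 RPKM and 4 (Cd68, Lyz2, Cd14 and Itgam) did not, with Cd68 highest at up to 7.10 RPKM. The 7 summed to 12.8 to 13.3 RPKM in siMyc with dox, 8.20 to 9.48 in siGcn5 with dox and 8.15 to 8.90 in siControl with dox, and to at most 7.32 without dox. Of 5 osteoclast markers found, Acp5 and Calcr stayed under 1 RPKM, Mmp9 and Nfatc1 reached 1.99 and 2.43 RPKM, and Ctsk lay between 13.7 and 46.2 RPKM. Their part in the members' values was not tested.

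Osteocalcin RNA was close to absent without dox, present in every arm with dox, and far higher where Myc was targeted. Bglap had 165 and 161 RPKM in siMyc with dox, 7.79 and 9.42 RPKM in siGcn5 with dox, and 22.1 and 22.2 RPKM in siControl with dox. Without dox it had 0.133 and 0.0985 RPKM in siMyc, 0.0776 and 0 RPKM in siGcn5, and 0.0952 and 0.0747 RPKM in siControl. The 3 groups with dox did not overlap each other or any group without dox; those without dox all lay at 0 to 13 reads per library.

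Bglap2 had 542 and 512 RPKM in siMyc with dox, 21.4 and 26.3 RPKM in siGcn5 with dox, and 64.9 and 69.4 RPKM in siControl with dox. Without dox its values were 0.176 and 0.196 RPKM in siMyc, 0.308 and 0 RPKM in siGcn5, and 0.252 and 0.721 RPKM in siControl. The order of the arms with dox was the same as for Bglap, siMyc above siControl above siGcn5. The ratio of Bglap2 to Bglap lay between 3.19 and 3.29 in siMyc with dox, between 2.74 and 2.80 in siGcn5 with dox, and between 2.93 and 3.12 in siControl with dox. As reads may have been shared between the copies, the near-constant ratio does not show that both moved.

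**Figure D1:**
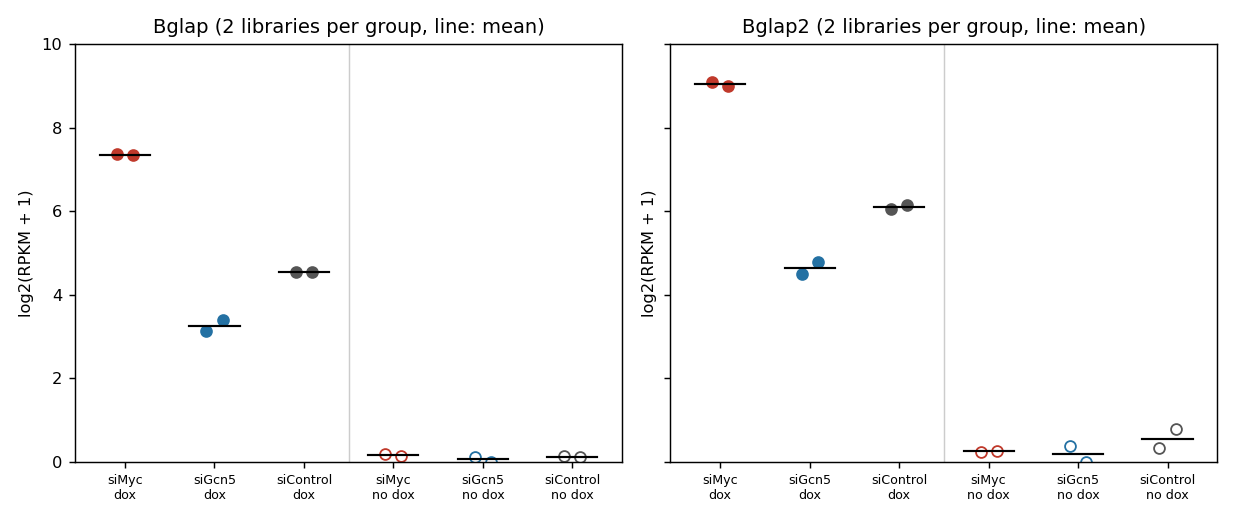
Level of Bglap and Bglap2 on the log2(RPKM + 1) scale in each of the 12 libraries; points are libraries, lines the mean of 2, filled points with dox and open points without. All groups without dox lie near 0 for Bglap, and siMyc with dox (165 and 161 RPKM) lies above siGcn5 with dox (7.79 and 9.42 RPKM) and siControl with dox (22.1 and 22.2 RPKM).

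On the log2(RPKM + 1) scale, which understates changes of low genes, Bglap was 7.20 ± 0.09 (SE) higher with than without dox in siMyc, 3.20 ± 0.09 higher in siGcn5 and 4.42 ± 0.09 higher in siControl, with limma adjusted p-values of 6.85e-12, 3.07e-09 and 2.94e-10. Bglap2 was 8.80, 4.43 and 5.54 higher in the same arms (SE 0.16 each). In siControl the mean RPKM with dox was 261 times that without dox for Bglap, a ratio that rests on 15 reads in the 2 libraries without dox.

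With dox, Bglap averaged 163 ± 2.91 RPKM in siMyc and 22.2 ± 0.0609 RPKM in siControl (SD, n = 2 each), a ratio of 7.33 and a log2 difference of 2.82 ± 0.09 (limma adjusted p = 3.1e-08). Bglap2 averaged 527 ± 21.2 RPKM in siMyc with dox and 67.2 ± 3.20 RPKM in siControl with dox, a ratio of 7.85. In siGcn5 with dox Bglap averaged 8.61 ± 1.15 RPKM, 0.388 times the siControl mean, and Bglap2 23.8 ± 3.52 RPKM, 0.355 times it. Both fell (log2 −1.28 and −1.46, limma adjusted p = 1.0e-05 and 9.0e-05). Without dox neither siRNA gave a call for Bglap or Bglap2, though with a pseudocount of 0.1 Bglap2 was called lower in siGcn5 (limma adjusted p = 0.0442), as it was without siControl without dox replicate 1 (0.0179) or siGcn5 without dox replicate 1 (0.0326).

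The arms with dox differed in Pou5f1, Sox2 and Klf4 RNA, whose part in what follows was not tested. The dox response of the osteocalcin genes differed between the arms by a direct test of the difference. It was larger in siMyc than in siControl, by 2.78 ± 0.13 for Bglap and 3.26 ± 0.23 for Bglap2 on the log2 scale, and smaller on this scale in siGcn5 than in siControl, by −1.21 ± 0.13 and −1.10 ± 0.23 (limma adjusted p = 0.00111 and 0.00938). The siGcn5 differences rest on the pseudocount of 1: with 0.1 they were −0.89 for Bglap and −0.08 for Bglap2 and not called (limma adjusted p = 0.0651 and 0.943). As ratios of mean RPKM with over without dox, Bglap had 222 in siGcn5 and 261 in siControl, and Bglap2 had 155 in siGcn5 and 138 in siControl, over 6 and 15 reads without dox for Bglap and 18 and 67 for Bglap2.

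The gene next to Bglap on chromosome 3, Pmf1, a kinetochore gene picked after its values were seen, followed Bglap only in part. It rose with dox in siControl (log2 0.82) and siGcn5 (log2 0.57) and was not called in siMyc (log2 −0.23). It had 12.6 and 13.2 RPKM in siMyc with dox and 8.12 and 13.4 RPKM in siGcn5 with dox against 32.0 and 30.3 RPKM in siControl with dox. With dox it was thus lower in both arms (log2 −1.21 and −1.49), as Bglap was in siGcn5 but not in siMyc. Without dox Pmf1 was already lower in siGcn5 than in siControl (log2 −1.24), where Bglap was not called (log2 −0.06). The siGcn5 dox response of Pmf1 differed from that of siControl by −0.26, not called, against −1.21 for Bglap at the pseudocount of 1.

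Most markers of epithelium rose with dox beside osteocalcin. Of 5 tested, 5 were higher in siMyc, 4 were higher and 1 lower in siGcn5, and 4 were higher in siControl, where 28.9%, 36% and 46.1% of all genes tested were higher. The one that fell, Krt18, averaged 12.6 ± 2.08 RPKM with dox and 34.1 ± 3.66 RPKM without dox in siGcn5. The summed RPKM of 6 epithelial markers was 1125 to 1241 in siMyc with dox, 460 to 535 in siGcn5 with dox and 451 to 514 in siControl with dox, and 6.98 to 7.33, 36.5 to 41.9 and 6.54 to 7.53 in siMyc, siGcn5 and siControl without dox. Krt14, a keratin of basal epithelium, made up most of these sums with dox and averaged 954 ± 71.2 RPKM in siMyc with dox and 334 ± 32.3 RPKM in siControl with dox. Cdh1, the cadherin of epithelial junctions, went the other way, with 5.05 ± 0.104 RPKM in siMyc with dox and 17.0 ± 1.83 RPKM in siControl with dox (log2 −1.57). Against siControl with dox 3 of the 5 were higher and 1 lower in siMyc, beside 37.7% and 37.1% of all genes. Fibroblast markers summed to 4191 to 4359 RPKM in siMyc with dox, 3085 to 3524 in siGcn5 with dox and 2572 to 2782 in siControl with dox, against 5701 to 5824, 4326 to 4666 and 6316 to 6369 without dox. The part of either list in the osteocalcin values was not tested. In bulk RNA, more cells that make a transcript and more transcript per cell cannot be told apart.

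Over the 12 libraries, other genes followed the osteocalcin pattern closely. For Bglap the highest Pearson correlations of log2(RPKM + 1) were with Rhpn2 (0.999), Zbtb7c (0.998) and Psca (0.998), and for Bglap2 with Zbtb7c (0.998), Bglap (0.997) and the gene listed as 4732456N10Rik (0.997). Psca averaged 92.5 RPKM in siMyc with dox, 6.86 RPKM in siGcn5 with dox and 13.6 RPKM in siControl with dox, and under 1 RPKM without dox. Like Bglap, 4732456N10Rik was highest in siMyc with dox (1072 RPKM), followed by siControl with dox (80.6 RPKM) and siGcn5 with dox (44.0 RPKM). The points of such a correlation share groups and libraries, and n is 12.

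Osteopontin moved the other way, down with dox in siControl and siMyc and down with either siRNA without dox. Spp1 had 105 and 96.7 RPKM in siMyc with dox, 244 and 232 RPKM in siGcn5 with dox, and 188 and 162 RPKM in siControl with dox. Without dox it had 278 and 370 RPKM in siMyc, 183 and 338 RPKM in siGcn5, and 831 and 919 RPKM in siControl, the highest group by far. The siMyc and siGcn5 libraries without dox overlapped each other, and the 2 siGcn5 libraries without dox lay far apart.

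Spp1 fell with dox in siControl (log2 −2.32 ± 0.23, to 0.200 times the level without dox) and in siMyc (log2 −1.66), but was not called in siGcn5 (log2 −0.06, 95% interval −0.58 to 0.45). Without siGcn5 without dox replicate 1, the low library of that pair, the siGcn5 value was −0.51 and called. Without dox Spp1 fell in siMyc to 324 ± 65.0 RPKM and in siGcn5 to 260 ± 110 RPKM, against 875 ± 62.1 RPKM in siControl (SD, n = 2 each; log2 −1.44 and −1.81). With dox it fell in siMyc against siControl (log2 −0.79, limma adjusted p = 0.0105), while siGcn5 against siControl gave 0.44 (limma adjusted p = 0.128). The siMyc call with dox was lost without siControl with dox replicate 1 (limma adjusted p = 0.0664) or without siMyc with dox replicate 2 (0.0511). The dox response of Spp1 differed between siGcn5 and siControl by 2.25 ± 0.33 (limma adjusted p = 0.00317); for siMyc the same difference was 0.66 ± 0.33 and not called.

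On the log2(RPKM + 1) scale, which understates changes of low genes, Spp1 was the member with the widest range outside osteocalcin. The genes most like Spp1 over the 12 libraries were Fam59b (Pearson 0.972), Tdrkh (0.959) and Ctxn1 (0.944). Of the 8 receptors of osteopontin and bone sialoprotein tested, 6 fell with dox in siControl, where 27.9% of all genes fell. With dox, 7 of 8 rose in siMyc against siControl, beside 37.7% of all genes, among them Itgb3 (19.2 ± 1.20 RPKM in siMyc, 4.83 ± 0.261 RPKM in siControl), the beta subunit of the vitronectin receptor, and Itgb1 (796 ± 41.0 and 315 ± 0.429 RPKM). In siGcn5 with dox 1 rose and 3 fell, beside 31.4% and 24.9% of all genes, among them Cd44 (79.3 ± 3.40 RPKM in siGcn5, 106 ± 2.98 RPKM in siControl), the hyaluronan receptor that also binds osteopontin. Without dox 6 of 8 fell in siGcn5, and 2 rose in siMyc, beside 20.4% and 12.8% of all genes.

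**Figure D2:**
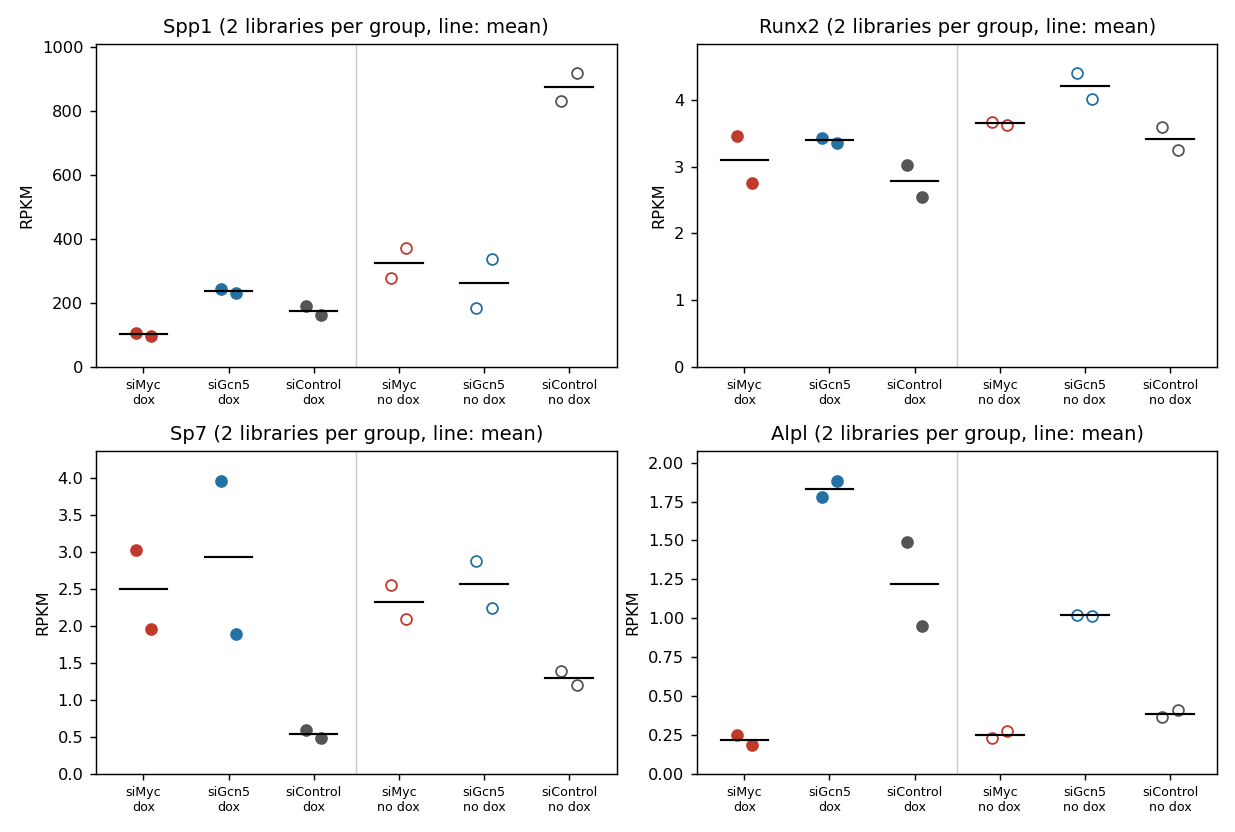
RPKM of Spp1, Runx2, Sp7 and Alpl in each of the 12 libraries, with the mean of 2 as a line; filled points with dox, open points without, each axis from 0. Spp1 is highest in siControl without dox (831 and 919 RPKM), Runx2 stays between 2.54 and 4.40 RPKM, Sp7 is lowest in siControl with dox (0.595 and 0.482 RPKM), and Alpl is highest in siGcn5 with dox (1.78 and 1.89 RPKM).

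Runx2, the transcription factor at the head of the osteoblast programme, varied little. It had 3.46 and 2.75 RPKM in siMyc with dox, 3.43 and 3.35 RPKM in siGcn5 with dox and 3.03 and 2.54 RPKM in siControl with dox. Without dox it had 3.67 and 3.63 RPKM in siMyc, 4.40 and 4.01 RPKM in siGcn5 and 3.60 and 3.25 RPKM in siControl. It was called in none of the 11 comparisons of the main fit. Its change with dox was −0.19 in siMyc, −0.24 in siGcn5 and −0.23 in siControl (95% interval −0.46 to 0.0048). After median-ratio scaling or quantile normalization it was called lower with dox in all 3 arms (log2 −0.26 to −0.40). With a term for replicate number it was called lower with dox in siGcn5 and siControl (limma adjusted p = 0.0203 and 0.0227). The same fit called it higher in siGcn5 than in siControl with and without dox (limma adjusted p = 0.0335 and 0.0239).

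Sp7 (osterix), which acts downstream of Runx2, had the lowest RPKM in siControl with dox. Its values were 3.03 and 1.96 RPKM in siMyc with dox, 3.97 and 1.89 RPKM in siGcn5 with dox and 0.595 and 0.482 RPKM in siControl with dox, and without dox 2.55 and 2.10, 2.88 and 2.25, and 1.39 and 1.20 RPKM in siMyc, siGcn5 and siControl. Both siRNA arms lay above siControl with dox with no overlap, by log2 1.17 ± 0.23 in siMyc and 1.30 ± 0.23 in siGcn5 (limma adjusted p = 8.04e-04 and 8.76e-04). The rise in siGcn5 without dox (log2 0.63) and the fall with dox in siControl (log2 −0.58) were each lost in several of the other fits, the second when any 1 of the 4 siControl libraries was left out (limma adjusted p = 0.0794 to 0.142). Osteocalcin and Sp7 did not rank the arms alike: in siGcn5 with dox Sp7 was high and Bglap low.

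Alpl was low in all groups and depended on the arm. It had 0.249 and 0.186 RPKM in siMyc with dox, 1.78 and 1.89 RPKM in siGcn5 with dox and 1.49 and 0.952 RPKM in siControl with dox. Without dox it had 0.229 and 0.272 RPKM in siMyc, 1.02 and 1.02 RPKM in siGcn5 and 0.363 and 0.410 RPKM in siControl. The siMyc libraries lay below those of the other arms in both states, but without dox the difference from siControl was not called (log2 −0.15, limma adjusted p = 0.340). Alpl rose with dox in siGcn5 and siControl (log2 0.49 and 0.67) and not in siMyc (−0.04). The difference between the siMyc and siControl responses was itself called (−0.71 ± 0.15, limma adjusted p = 0.00286). Alpl passed the filter only through siGcn5 in both states and siControl with dox. That favours calls of lower in siMyc with dox and of a rise with dox in siControl. In siMyc with dox Alpl fell to 0.178 times siControl (log2 −0.86), and in siGcn5 without dox it was 2.63 times siControl (log2 0.54). The siGcn5 rise with dox (log2 0.36) was not called without siControl with dox replicate 2 (0.19, limma adjusted p = 0.124) or siGcn5 with dox replicate 2 (0.0522), after quantile normalization (0.0515) or with only the groups compared (0.0790). The other alkaline phosphatase genes, Alpi, Akp3 and Alppl2, stayed under 1 RPKM in all 12 libraries.

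Ibsp did not pass the filter for testing, which asked for 1 RPKM in 2 of the 12 libraries. It had 0.425 and 0.533 RPKM in siGcn5 without dox, from 103 and 90 reads, and at most 0.0995 RPKM in every other library, with 0 reads in both siControl libraries with dox. Its neighbours on chromosome 5 in the reference annotation are Dmp1 and Mepe, both under 1 RPKM throughout.

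Among the cartilage genes, Sox9 fell with dox in all 3 arms. It had 1.70 and 1.26 RPKM in siMyc with dox, 0.783 and 0.644 RPKM in siGcn5 with dox and 0.618 and 0.412 RPKM in siControl with dox. Without dox its values were 2.56 and 2.11 RPKM in siMyc, 1.90 and 1.29 RPKM in siGcn5 and 1.90 and 1.71 RPKM in siControl. With and without dox did not overlap within an arm. The falls were −0.43 ± 0.14 in siMyc, −0.59 ± 0.14 in siGcn5 and −0.89 ± 0.14 in siControl on the log2 scale, and the siMyc fall was lost without siMyc with dox replicate 2 (limma adjusted p = 0.183) or siMyc without dox replicate 1 (0.160), or with a pseudocount of 0.1 (0.0506). With dox Sox9 was 2.88 times as high in siMyc as in siControl (log2 0.71, limma adjusted p = 7.9e-04). The difference between these dox responses (0.46) missed the threshold (limma adjusted p = 0.0647). It was called with a pseudocount of 0.1, after median-ratio scaling and with only the groups compared (limma adjusted p = 0.0257, 0.0419 and 0.0412). A term for replicate number also gave a call (limma adjusted p = 0.00576).

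Acan fell with either siRNA without dox. It had 0.386 and 0.694 RPKM in siMyc and 0.253 and 0.449 RPKM in siGcn5 without dox, against 2.16 and 2.10 RPKM in siControl without dox (log2 −1.03 ± 0.11 and −1.21 ± 0.11). With dox it had 0.900 and 0.952 RPKM in siMyc, 0.442 and 0.544 RPKM in siGcn5 and 1.29 and 1.27 RPKM in siControl. With dox it was lower in siGcn5 than in siControl (log2 −0.61). Acan passed the filter only through siControl with and without dox, which favours calls of lower in the siRNA arms. It fell with dox in siControl (log2 −0.46), and the dox responses of siMyc and siGcn5 differed from it by 0.79 ± 0.15 and 0.60 ± 0.15 (limma adjusted p = 0.00168 and 0.0176). The rise with dox in siMyc (log2 0.33) was not called after quantile normalization (−0.02), with only the groups compared (limma adjusted p = 0.0583) or without siMyc without dox replicate 1 (0.18) or either siMyc library with dox, and the siGcn5 difference was lost after quantile normalization (0.31, limma adjusted p = 0.138) and without any 1 of 4 libraries, siControl without dox replicates 1 and 2, siControl with dox replicate 2 and siGcn5 without dox replicate 1 (limma adjusted p = 0.0544 to 0.0683).

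Chad had 0.471 and 0.759 RPKM in siMyc with dox, 0.786 and 0.706 RPKM in siGcn5 with dox and 0.577 and 0.497 RPKM in siControl with dox. Without dox it had 0.576 and 1.14 RPKM in siMyc, 1.27 and 1.39 RPKM in siGcn5 and 0.835 and 1.04 RPKM in siControl. It fell with dox in siGcn5 (log2 −0.41) and siControl (log2 −0.33), close to the threshold in each (limma adjusted p = 0.0259 and 0.0493), and the siControl call was lost with no filter (limma adjusted p = 0.0794) and when any of the 8 siControl and siGcn5 libraries was left out. Chad passed the filter only through groups without dox, which favours calls in this direction. The siGcn5 call was lost without siGcn5 without dox replicate 1 or 2 or siGcn5 with dox replicate 2 (limma adjusted p = 0.0629 to 0.103).

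**Figure D3:**
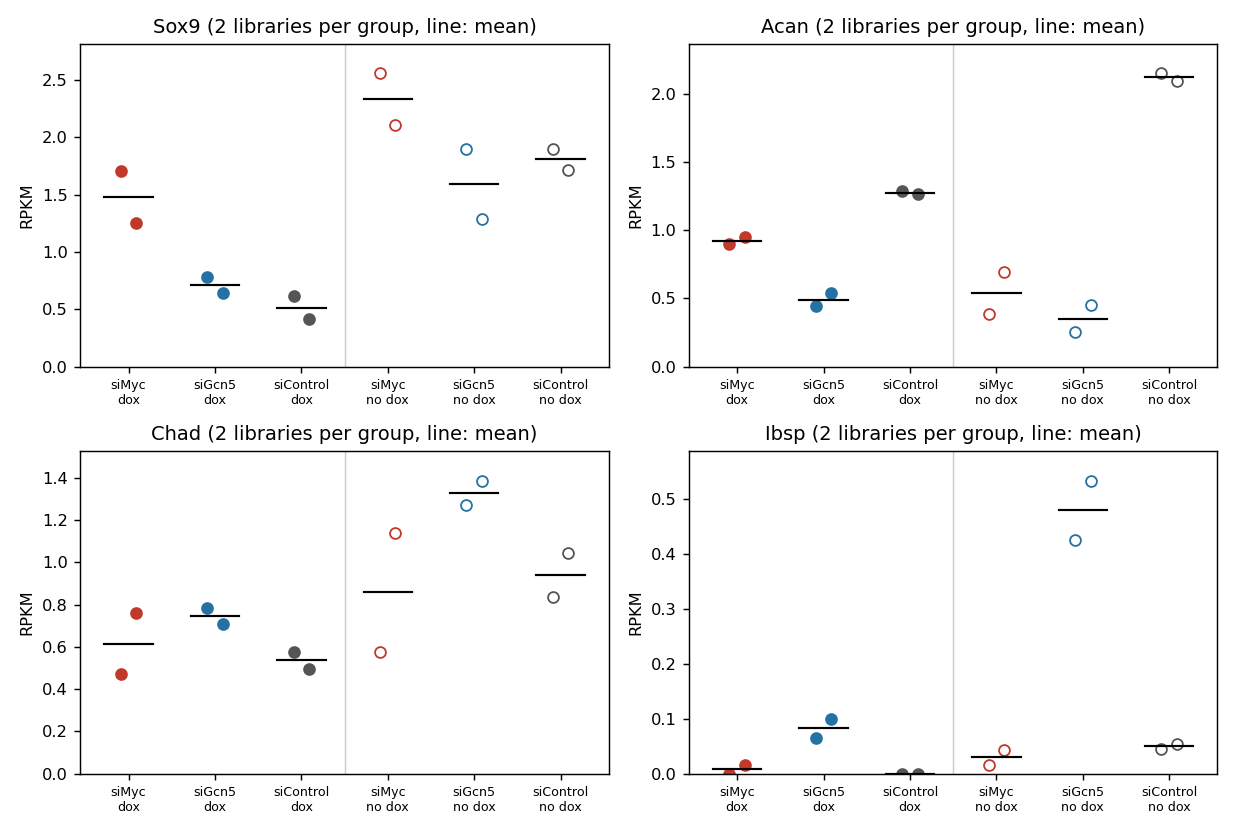
RPKM of Sox9, Acan, Chad and Ibsp in each of the 12 libraries, with the mean of 2 as a line; filled points with dox, open points without, each axis from 0. Acan is highest in siControl without dox (2.16 and 2.10 RPKM), Sox9 is lowest in siControl with dox (0.618 and 0.412 RPKM), and Ibsp is highest in siGcn5 without dox (0.425 and 0.533 RPKM).

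Counted over the 9 members tested, with Ibsp left out, calls at a limma adjusted p under 0.05 are set beside those of all genes, which were many in most comparisons. Bglap and Bglap2 count as 2 members here and below, although reads may have been shared between the copies. Both are among the 3 members higher with dox in each arm. With dox against without, 3 members were higher and 2 lower in siMyc, where 28.9% and 15.9% of all 13175 genes tested were higher and lower. In siGcn5 3 were higher and 2 lower, against 36% and 22.4% of all genes. In siControl 3 were higher and 5 lower, against 46.1% and 27.9%. Bglap and Bglap2 passed the filter only through the groups with dox, Acan only through siControl, Alpl only through siGcn5 in both states and siControl with dox, and Chad only through the groups without dox, so part of their calls follows from the filter. Of all calls for dox, 64.5% were higher in siMyc, 61.6% in siGcn5 and 62.3% in siControl, and after quantile normalization 40.2%, 43% and 49.9%. The median change of all genes with dox in siControl was 0.17 on the log2 scale.

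Against siControl, 4 members were higher and 2 lower in siMyc with dox, where 37.7% and 37.1% of all genes were. In siGcn5 with dox 2 were higher and 3 lower, against 31.4% and 24.9%. In siMyc without dox 0 were higher and 2 (Spp1 and Acan) lower, against 12.8% and 10.7%, with Sp7 also higher at an unadjusted p under 0.05 (log2 0.53). In siGcn5 without dox 2 were higher and 2 lower, against 36.9% and 20.4% of all genes. Of all calls in siGcn5 with dox 55.8% were higher, and 43.8% after median-ratio scaling; in siGcn5 without dox these shares were 64.4% and 49.3%. The median of all genes in siGcn5 without dox was 0.11.

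The dox response of siMyc was above that of siControl for 3 members and below it for 1, against 24.8% and 29.3% of all genes. That of siGcn5 was above it for 2 and below it for 2, against 11.4% and 14.5%. In siMyc against siGcn5 with dox 4 members were higher and 2 lower, against 27.3% and 38.6%, and without dox 1 was higher (Sox9) and 1 lower (Alpl), against 22.2% and 36.5%. Of all calls, 41.4% with dox and 37.8% without dox were higher in siMyc than in siGcn5, and after median-ratio scaling 52.8% and 48.3%. Comparisons that use the same siControl libraries are not independent of each other.

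**Figure D4:**
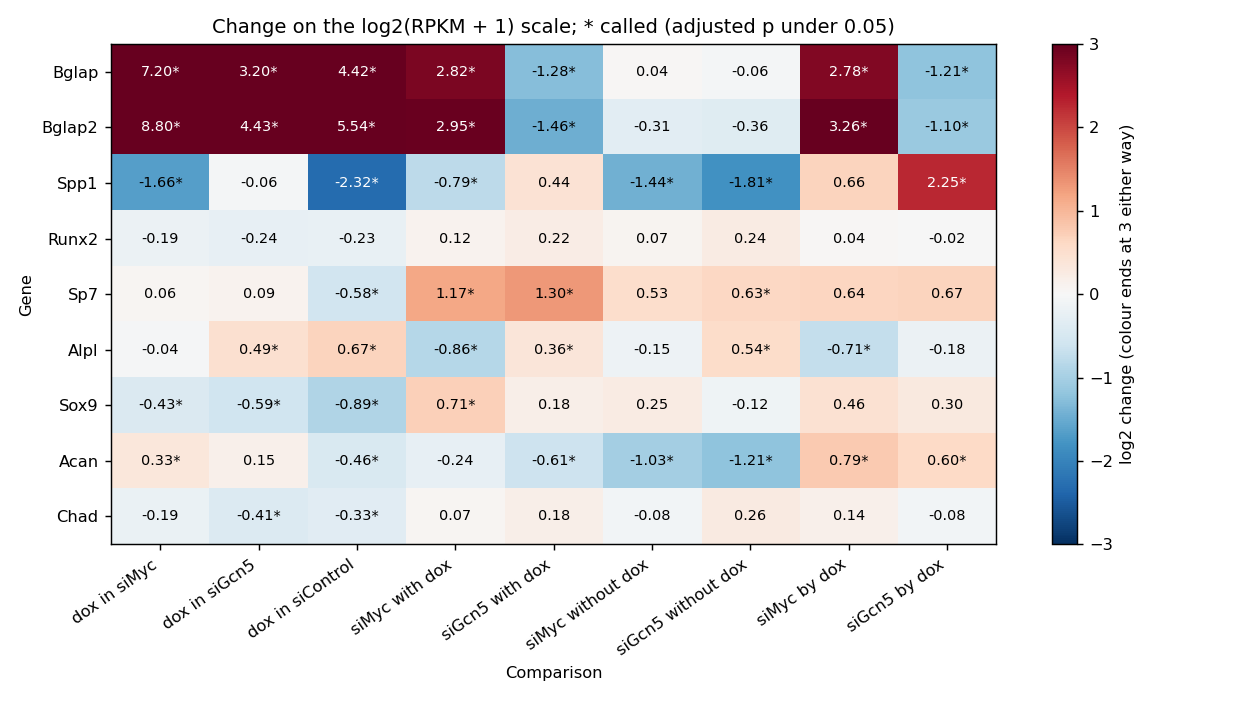
Change on the log2(RPKM + 1) scale of the 9 members tested (rows) in 9 comparisons (columns), with red for higher and blue for lower and an asterisk where limma's adjusted p was under 0.05. Bglap and Bglap2 change most, by 7.20 and 8.80 with dox in siMyc, and no value of Runx2 has an asterisk.

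Most genes of the bone matrix fell with dox in siControl. Of 13 tested in a list of 19, 10 fell and 2 rose with dox in siControl, beside 27.9% and 46.1% of all genes, with a median of −0.93 against 0.17 for all genes. Col1a1, the main collagen of bone and of fibroblasts, averaged 752 ± 138 RPKM with dox and 3854 ± 211 RPKM without dox in siControl. With dox 6 of 13 were higher and 1 lower in siMyc than in siControl, beside 37.7% and 37.1% of all genes. Sparc (osteonectin) was among those higher, with 2156 ± 51.6 RPKM in siMyc and 519 ± 49.2 RPKM in siControl. Omd (osteomodulin) was the one that fell in siMyc, with 1.68 ± 0.0923 and 6.39 ± 0.625 RPKM. In siGcn5 7 were higher and 2 lower than in siControl with dox, beside 31.4% and 24.9% of all genes. Without dox 1 was higher and 10 lower in siGcn5, beside 36.9% and 20.4% of all genes, and Enpp1, which makes the mineralization inhibitor pyrophosphate, averaged 0.944 ± 0.316 RPKM in siGcn5 and 6.70 ± 0.531 RPKM in siControl. All 4 factors by which osteoblasts act on osteoclasts (Tnfsf11, Tnfrsf11b, Csf1 and Il6) fell with dox in siControl, beside 27.9% of all genes. They were higher in siMyc than in siControl with dox, beside 37.7% of all genes. All 4 also fell with dox in siMyc, beside 15.9% of all genes. Only 1, Tnfrsf11b, had a dox response called above that of siControl in siMyc, beside 24.8% of all genes. Without dox 1, Il6, was already higher in siMyc, beside 12.8% of all genes. Fibroblast markers moved with these lists. Of 10 markers, 9 were lower with dox in siControl and 7 higher in siMyc than in siControl with dox, beside 27.9% and 37.7% of all genes. Their part was not tested.

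Other regulators of osteoblasts split. With dox in siControl 3 of 9 tested rose and 4 fell, beside 46.1% and 27.9% of all genes. Dlx3, a homeobox factor of bone and skin, averaged 1.18 ± 0.529 RPKM with dox and 0.0236 ± 0.019 RPKM without dox in siControl, and 2.93 ± 0.188 RPKM in siMyc with dox. Against siControl 4 of 9 rose and 1 fell in siGcn5 with dox, where 31.4% and 24.9% of all genes did. Without dox 5 rose and 0 fell in siGcn5, where 36.9% and 20.4% of all genes did. Whether counts over 9 genes differ from these shares was not tested. Msx2, a homeobox factor of the skull and limb, averaged 16.1 ± 6.52 RPKM in siGcn5 and 1.36 ± 0.329 RPKM in siControl with dox, and 23.4 ± 6.96 RPKM in siGcn5 and 3.49 ± 0.845 RPKM in siControl without dox. In siMyc 3 rose and 4 fell with dox, and 1 fell without dox, beside 37.7%, 37.1% and 10.7% of all genes.

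Among the cartilage and growth plate genes, Col10a1 and Mmp13 were far higher in siGcn5 than in siControl. Col10a1, the collagen of hypertrophic chondrocytes, averaged 78.8 ± 10.9 RPKM in siGcn5 and 2.93 ± 0.141 RPKM in siControl with dox, and 129 ± 7.55 RPKM in siGcn5 and 8.88 ± 0.0468 RPKM in siControl without dox (log2 4.34 and 3.71). Mmp13, the collagenase of hypertrophic cartilage and bone, averaged 9.63 ± 1.28 RPKM in siGcn5 and 0.608 ± 0.0613 RPKM in siControl with dox, and 39.5 ± 1.57 and 4.92 ± 0.234 RPKM without dox. Alpl and, at its low level, Ibsp were also highest in siGcn5 among the arms without dox. Other skeletal genes went the other way without dox. Spp1 averaged 260 RPKM in siGcn5 and 875 RPKM in siControl, Acan 0.351 and 2.13 RPKM, and Col2a1 104 and 193 RPKM. Of the 13 bone matrix genes tested, 10 were lower and 1 higher in siGcn5 without dox, beside 20.4% and 36.9% of all genes. Of 12 cartilage matrix genes tested in a list of 23, 6 rose and 2 fell in siGcn5 with dox, beside 31.4% and 24.9% of all genes, and 5 rose and 3 fell without dox, beside 36.9% and 20.4%.

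In siMyc with dox 6 of the 12 cartilage matrix genes rose and 2 fell against siControl, beside 37.7% and 37.1% of all genes. Those higher included Comp, a pentameric protein of cartilage and tendon, with 10.3 ± 1.78 RPKM in siMyc and 0.903 ± 0.318 RPKM in siControl, and Col2a1, the main collagen of cartilage, with 81.7 ± 1.36 and 40.7 ± 14.1 RPKM. Without dox 1 fell in siMyc, beside 10.7%. With dox in siControl 2 rose and 5 fell, beside 46.1% and 27.9%, and Col2a1 averaged 40.7 ± 14.1 RPKM with dox and 193 ± 17.2 RPKM without dox. Of 9 growth plate signalling genes tested, 6 rose and 1 fell in siGcn5 with dox, beside 31.4% and 24.9% of all genes, and 5 rose and 2 fell in siMyc with dox, beside 37.7% and 37.1%. Fgfr3, the receptor that restrains growth of cartilage, averaged 8.04 ± 0.639 RPKM in siMyc, 4.37 ± 1.16 RPKM in siGcn5 and 2.61 ± 0.657 RPKM in siControl with dox.

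**Figure D5:**
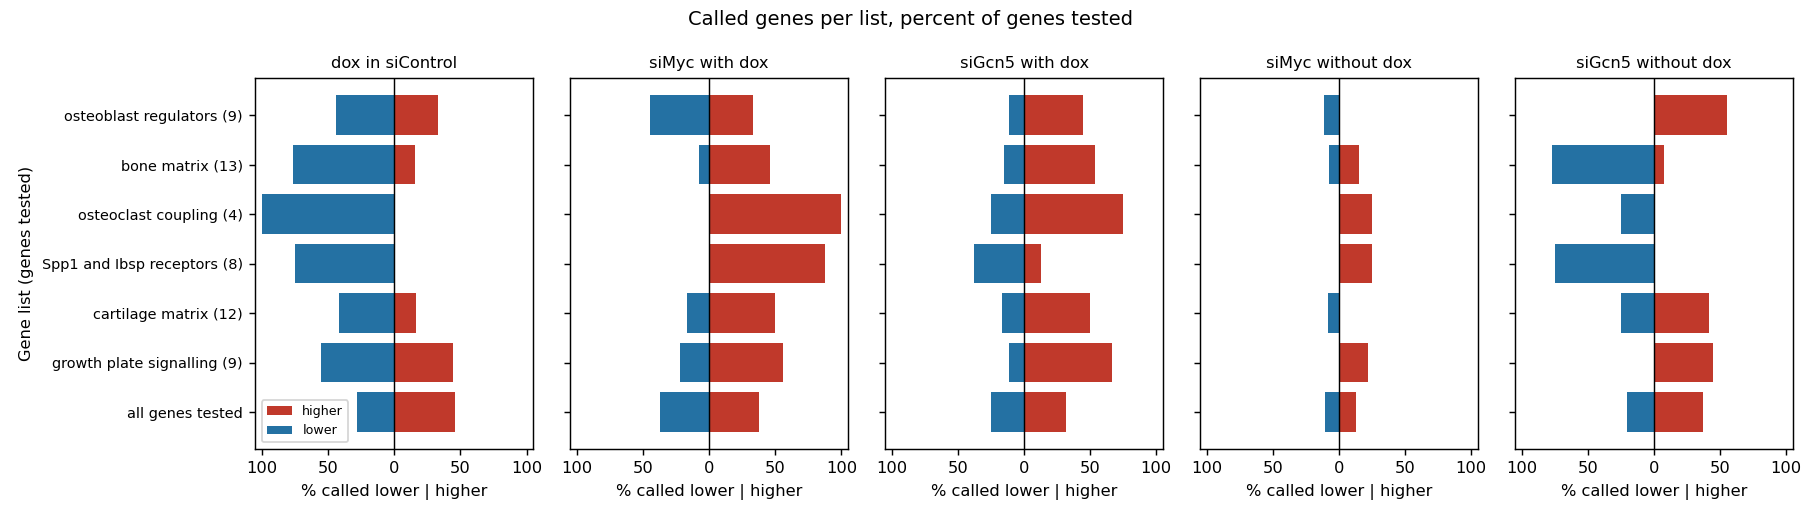
Percent of tested genes of 6 skeletal gene lists, and of all genes tested, called higher (red, to the right) or lower (blue, to the left) in 5 comparisons; the number tested stands beside each list. Of 13 bone matrix genes 10 are lower with dox in siControl and 6 higher in siMyc with dox, beside 27.9% lower and 37.7% higher of all genes.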

How the data were processed

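The 10 genes, the other gene lists and the rule for named genes were chosen with earlier results of these data known. Per the labels' protocols, stranded libraries of ribosome-depleted total RNA (TruSeq with Ribo-Zero Gold) were sequenced on an Illumina HiSeq. The authors deposited RPKM per library, in 1 table each for 23284 symbols. The build was mm9, per the submitters' processing notes, which also name Bowtie 0.12.8, TopHat2 2.0.9, HTSeq, edgeR and affy. Annotation, strand setting and filtering steps: not given in the sources used here. Since RPKM is relative to the total of a library, it does not show RNA per cell.

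Genes with an RPKM of at least 1 in 2 or more of the 12 libraries (13175) were tested on log2(RPKM + 1) by limma 3.58.1 (R 4.3.3; trend on mean level), with 1 term per group, 6 residual and 4.17 prior degrees of freedom and two-sided Benjamini-Hochberg adjustment over all genes. A gene was called at an adjusted p under 0.05. The fit was also run on simulated data in which only genes of higher level were changed. Low members, among them Alpl, Acan and Chad, lay below that range, so it does not speak for them. Dox was compared within each arm, siMyc and siGcn5 with siControl without and with dox, their dox responses with that of siControl, and siMyc with siGcn5. Values after ± are SDs over 2 libraries unless named SE. Whole reads recovered from RPKM (20788 of 20788 genes with a value, tolerance 0.05 read) gave the depth, and counting error is covered by no interval here. Named genes were the 10 members, the siRNA targets, and Pou5f1, Sox2 and Klf4 as the check of dox. Others were up to 4 called genes per list with the largest change and the 3 genes most like Spp1, Bglap2 and Bglap. Promoter windows are RefSeq's, transcripts GENCODE's.

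The alternatives were a pseudocount of 0.1, no filter, a mean RPKM of at least 5, median-ratio scaling, quantile normalization, only the groups compared, a replicate block and leaving out each library. Proteins were not analysed here.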

Additional observations from a re-analysis of the deposited data

Results flagged for a closer look

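Some members changed with dox by a different amount in an siRNA arm than in siControl, by the direct test of that difference in limma, which is what brings them here. In siMyc the dox response exceeded that of siControl by 2.78 for Bglap, 3.26 for Bglap2 and 0.79 for Acan on the log2(RPKM + 1) scale, and for Alpl it was below it, with a difference of −0.71. In siGcn5 the difference was −1.21 for Bglap, −1.10 for Bglap2, 2.25 for Spp1 and 0.60 for Acan. With a pseudocount of 0.1 the Bglap and Bglap2 differences were −0.89 and −0.08 and not called (limma adjusted p = 0.0651 and 0.943), and after quantile normalization that of Acan was 0.31 and not called (0.138). Groups of 2 libraries are too small for a search for single libraries that stand apart.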

How the results depend on the processing

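Results are log2 changes of members, or counts of called members or genes, in a comparison. Of 99 member results, 82 (quantile normalization) to 95 (no filter) kept their direction and their side of the threshold under each of the 6 alternatives that kept all 9 members, and the 33 of the 3 members left at a mean RPKM of at least 5 all did. Among the 1188 values with 1 library left out, 1100 did. A mean RPKM of at least 5 left Bglap, Bglap2 and Spp1, so that members called came to 3 for dox in siControl, 3 for dox in siMyc, 2 for dox in siGcn5, 1 in siMyc without dox, 3 in siMyc with dox, 1 in siGcn5 without dox, 2 in siGcn5 with dox, 2 for the dox response of siMyc, 0 for siMyc against siGcn5 without dox and 3 with dox; genes called for dox in siMyc came to 3787, with fewer genes tested. With only the groups compared, 7 members were called for the dox response of siMyc and 1 for siMyc against siGcn5 without dox, where no filter also gave 1. A pseudocount of 0.1 gave 2 for the dox response of siGcn5. The replicate numbers were not taken as pairs: same-numbered deviations correlated between 0.093 and 0.489 over 15 pairs of groups, above 0.1 in 14 of them. The replicate block called 4 members in siMyc without dox, against 2, and no member result lost its call under it. It gave a call to 11 that had none, among them Runx2 lower with dox in siGcn5 and siControl (adjusted p = 0.0203 and 0.0227), Runx2 higher in siGcn5 with and without dox (0.0335 and 0.0239), Sp7 in siMyc without dox (0.0201) and the Sox9 difference of the siMyc dox response (0.00576).

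Sign changes under another scaling came in values not called in the main analysis, apart from Acan with dox in siMyc (−0.0239 after quantile normalization), and the cause was not tested. Quantile normalization gave −0.153 for Sp7 with dox in siMyc, −0.1025 for Sp7 and −0.2658 for Acan with dox in siGcn5 (then called lower, limma adjusted p = 0.0421), −0.1411 for Chad in siMyc with dox, −0.0204 for Sox9 and −0.019 for Chad in siGcn5 with dox, and −0.0114 for Runx2 and −0.036 for Chad in the dox response of siMyc. Median-ratio scaling gave −0.0055 for Sp7 with dox in siMyc, 0.0109 for Runx2 in the dox response of siGcn5 and 0.006 for Runx2 in siMyc against siGcn5 with dox.

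With 1 library left out, a lone library is assumed to vary like the other groups. Members called ran from 3 (without siMyc with dox replicate 2) to 5 for dox in siMyc, and from 1 (without siControl without dox replicate 1 or 2) to 3 for siMyc against siGcn5 without dox. Genes called in siMyc without dox, 3098 in all, ran from 1072 to 3481, with the lowest 3 without siMyc without dox replicate 1 (1072) and siControl without dox replicates 1 (1272) and 2 (1387). For the dox response of siGcn5, 3409 in all, they ran from 1677 to 3960, with the lowest 5 without siControl without dox replicates 1 (1917) and 2 (1677), siControl with dox replicate 2 (1769), siGcn5 without dox replicate 1 (1734) and siGcn5 with dox replicate 1 (2232). Signs turned in values that were not called: with dox, Sp7 ran from −0.1612 to 0.2829 in siMyc and from −0.2971 to 0.4861 in siGcn5, Chad from −0.411 to 0.0291 in siMyc, and Spp1 from −0.5063 to 0.3765 in siGcn5. In siMyc against siControl, Chad ran from −0.2972 to 0.1429 without dox and from −0.0634 to 0.1947 with dox, and Runx2 from −0.0089 to 0.2406 with dox; Sox9 ran from −0.2952 to 0.0469 in siGcn5 without dox. The dox response differed by −0.0838 to 0.1658 (siMyc) and −0.1099 to 0.0764 (siGcn5) for Runx2, and by −0.0772 to 0.3629 (siMyc) for Chad. In siMyc against siGcn5, Bglap2 ran from −0.1416 to 0.2461, Spp1 from −0.0745 to 0.8083 and Sp7 from −0.2268 to 0.0305 without dox, and Runx2 from −0.2278 to 0.0217, Sp7 from −0.5234 to 0.2597 and Chad from −0.2472 to 0.0109 with dox. Depth limits Bglap and Bglap2 without dox (at most 51 reads) and Ibsp.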
